A study of Mus musculus with 2 samples.

Results

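The NRF2 antioxidant genes comprise the transcription factor NRF2 (Nfe2l2), its repressor KEAP1 and 8 genes of the quinone, glutathione and thioredoxin systems (Nqo1, Slc7a11, Gclc, Gclm, Gsr, Gpx1, Txnrd1 and Srxn1). They were taken as a named set of 10 genes, and every non-control probe whose RefSeq accession belonged to one of them was read, which gave 11 of 39424 probes and 10 of 32448 genes or unnamed identifiers. Bone marrow-derived macrophages (BMDMs) were grown in M-CSF from the marrow of male mice of the genotype Crif1 f/f at 8 weeks of age. These mice carry a Crif1 gene flanked by loxP sites, and the methods for the arrays name no Cre driver. Some BMDMs were left untreated and others received IL-4 for 18 h, a cytokine that moves macrophages toward the alternatively activated (M2-like) state, and the labels do not say how many mice or cultures gave each RNA. Cy3-labelled RNA of each condition was hybridised to 1 single-colour Agilent mouse array, so no difference between conditions has a replicate check and no p-value is given. The comparison asks how IL-4 treatment moved the transcripts of this antioxidant system.

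In unstressed cells KEAP1 holds NRF2 in the cytoplasm and hands it to the ubiquitin machinery for destruction. Electrophiles and oxidants modify KEAP1, NRF2 then accumulates in the nucleus, pairs with a small MAF protein and binds the antioxidant response element in its target genes. BACH1 competes for the same element as a repressor, and in macrophages the NRF2 program is known for limiting oxidant damage and inflammatory gene expression. Because NRF2 is controlled largely through protein stability, the mRNA of Nfe2l2 is not a measure of NRF2 activity.

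The core of the antioxidant response element, TGACNNNGC, was searched for on both strands of the RefSeq promoter windows, which hold 250 bases before and 50 after each start (GRCm38.p6). Of the 10 genes, 8 were in the promoter table with 10 windows, and Gsr and Gclc were not. The core was present in 4 of these 8 genes, against 14% of all 27025 genes with a window. The stretches below are shown because they are the letters the 4 genes share. Capitals mark the core (Nfe2l2) or its reverse complement (Gclm, Txnrd1 and Srxn1). Each is written along the gene's own strand.
Nfe2l2, chr2:75704885-75704913, minus strand, 240 bases before the start: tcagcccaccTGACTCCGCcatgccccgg
Gclm, chr3:122245413-122245441, plus strand, 134 bases before the start: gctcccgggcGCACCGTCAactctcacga
Txnrd1, chr10:82859104-82859132, plus strand, 92 bases before the start of 1 of its 3 windows: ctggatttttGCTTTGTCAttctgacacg
Srxn1, chr2:152105542-152105570, plus strand, 29 bases after the start: gcagtgggcaGCTAGGTCAgagtgagaca

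A second form of the core, TGAGNNNGC, which differs from the first in 1 base and so cannot match at the same position, was chosen after seeing the data. It was present in Srxn1 and Slc7a11, that is in 2 of the 8 genes, against 19.8% of all genes with a window. The Srxn1 match 45 bases before the start overlaps TGAGTCA, a sequence that AP-1 factors also bind. Capitals mark this form on the gene's strand in the Srxn1 match at 45 bases and its reverse complement in the other 2 stretches.
Srxn1, chr2:152105469-152105497, plus strand, 45 bases before the start: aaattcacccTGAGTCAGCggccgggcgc
Srxn1, chr2:152105356-152105384, plus strand, 158 bases before the start: tctactgagaGCCGACTCAtcctctctgg
Slc7a11, chr3:50443692-50443720, minus strand, 97 bases before the start: taatgttggcGCTTTCTCAagctggagtt
A match describes these letters only, no binding was measured on these arrays, and enhancers outside the windows were not searched.

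None of the 10 genes differed 2-fold between the arrays in either direction, and the clearest difference was a lower Gsr signal after IL-4. Gsr encodes glutathione reductase, which returns oxidised glutathione to its reduced form, and it was 1.57-fold lower. Gclm, the modifier subunit of the enzyme that makes the first step of glutathione synthesis, was 1.26-fold lower, and the other 8 genes differed by at most 1.15-fold. At the 2-fold level 0 of 10 genes were higher, against 2.86% of the 19743 genes detected on either array, and 0 of 10 were lower, against 4.47%. At 1.5-fold, 0 of 10 genes were higher against 6.11% of all genes, and 1 of 10, Gsr, was lower against 11.0%, a count that was 0 with no scaling, median scaling and spike-in scaling. All 10 genes were detected on both arrays, and among the 17242 genes of that kind the shares were smaller, 2.11% higher and 1.57% lower at 2-fold and 4.68% higher and 5.60% lower at 1.5-fold. A gene is called detected here where the scanner software flagged its signal as well above background. In RNA of a whole culture, fewer cells of a type and less RNA per cell cannot be told apart.

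The M2 markers matched the IL-4 label and were higher in 4 of 4 genes. Arg1 had intensities of 85 and 19688 and a log2 difference of 7.76, Chil3 was higher by 3.83 and Mrc1 by 2.42, and Retnla was at least 595-fold higher, since its signal in untreated BMDMs was at background, with a bound of 182-fold under normexp. All 8 macrophage markers on the array were detected, with a median difference of -0.71. Of these, Cd14 (-1.42), Fcgr1 (-1.23) and Mertk (-1.14) were more than 2-fold lower. Lyz2 (-0.70) and Itgam (-0.71), which encodes CD11b, were at least 1.5-fold lower by the brightest probe. The 2 other Itgam probes were at only -0.27 and -0.24. Adgre1 (0.17), which encodes F4/80, Csf1r (0.09, other probes -0.11 and 0.05) and Spi1 (0.23) were above 0. Per the study's methods, flow cytometry of CD11b and F4/80 found such cultures to be highly pure. All 6 fibroblast markers were detected on both arrays, among them the collagen gene Col1a2 at intensities of 233342 and 234332, with a summed intensity of 324153 before and 317280 after IL-4, a log2 difference of the scaled sums of -0.13. Such a sum is mostly that of its brightest probe, here Col1a2, and the median difference of the 6 genes was -0.06. The 6 genes went both ways, with Pdgfra (0.51) and Lum (0.52) above 0 and the other 4, among them Col1a1 (-0.34), below 0. All 7 neutrophil markers on the array were detected, with sums of 39356 and 37586, mostly from S100a9, and a log2 difference of -0.17. The median of the 7 genes was -0.23 and 6 were below 0. The granule genes Ngp (-0.80), Camp (-0.61) and Ltf (-0.54) were lower by amounts near that of Gsr (-0.65). The granule genes Elane (-0.23) and Mpo (0.30) were not, nor were S100a8 (-0.17) and S100a9 (-0.10). For erythroid cells 0 of 3 markers were detected. For eosinophils and mast cells 4 of 7 markers were detected on either array (sums of 1039 and 1046, -0.09), with Epx, Mcpt4 and Ms4a2 at background. That sum is mostly Siglecf (772 and 817, -0.02). Prg2 (0.37) and Ccr3 (0.28, below 0 with normexp) were above 0. Cpa3 was not detected after IL-4 (intensities of 91 and 6) and was at least 3.51-fold lower. For dendritic cells 2 of 4 markers were detected (sums of 118 and 106, -0.25). The part of these markers in the differences of the NRF2 antioxidant genes was not tested.

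All 11 probes were printed in 1 spot each and were detected on both arrays, with 0 spots flagged as outliers and 0 saturated. Intensities below are background-subtracted scanner units before scaling. Log2 differences are IL-4-treated minus untreated after each array was scaled by subtracting its 75th percentile, at 9.84 for untreated and 9.94 for IL-4-treated BMDMs. The IL-4 array was thus the brighter one by 0.10 on the log2 scale, and a gene can have a higher intensity there and a difference below 0. Each difference is given with an SD between spots, the median over the 10-spot probes of similar signal. The software's own error on each intensity was also carried over to the difference. Neither covers the spread between cultures. Intensities of different probes are not comparable as amounts of RNA, so each of the NRF2 antioxidant genes is compared only with itself.

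**Figure D1:**
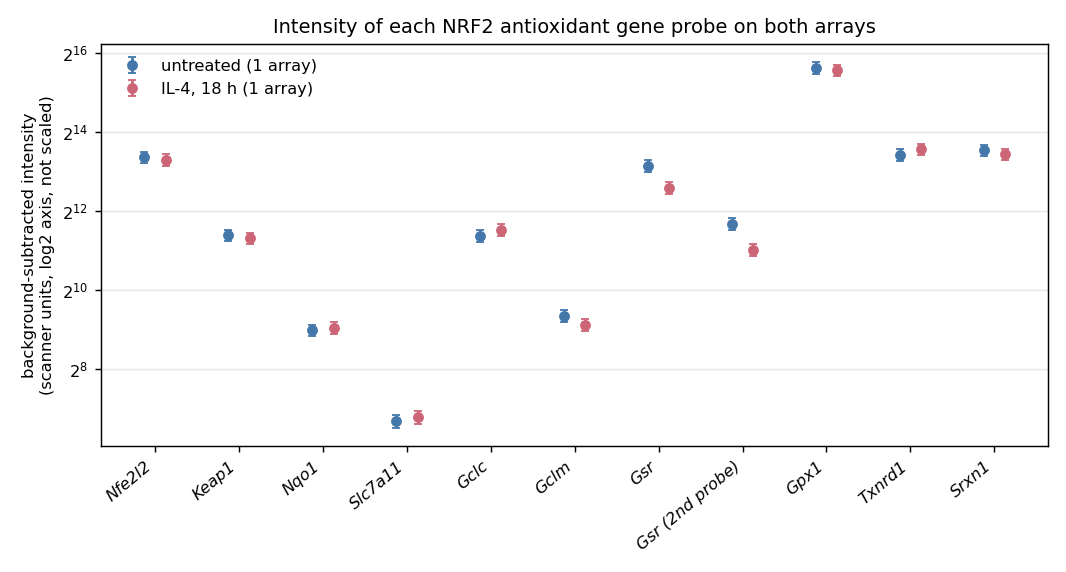
Background-subtracted intensity of each probe (log2 axis, scanner units, not scaled) on the untreated array (blue) and the IL-4 array (red), 1 array each, with bars for the error assigned by the scanner software. Both Gsr probes sit lower on the IL-4 array by more than their bars, from 9033 to 6168 and from 3289 to 2079, while the bars of the other genes overlap between the arrays.

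Among the regulators, Nfe2l2 had an intensity of 10529 in untreated and 10048 in IL-4-treated BMDMs. Its log2 difference was -0.17 with a spot SD of 0.048. Keap1, whose product targets NRF2 for degradation, had intensities of 2670 and 2542 and a log2 difference of -0.17 with a spot SD of 0.053. The transcription factor and its repressor were therefore displaced by the same small amount, beyond the spot SD and within 1 software error of 0.20. Relative to the median of all genes they lay at -0.15 and -0.16, and both differences turn positive under median scaling and spike-in scaling, which move all genes upward.

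Nqo1, the quinone reductase often read as an indicator of NRF2 activity, had intensities of 509 and 530. Its log2 difference was -0.04 with a spot SD of 0.062, smaller than the spot SD, and its sign turned under 4 of 10 alternatives. Slc7a11, the cystine carrier of system xc that supplies cysteine for glutathione, had intensities of 104 and 111. It had the largest software error of the set, 11.5% and 11.2% of the intensity. Its log2 difference was -0.01 with a spot SD of 0.16 and a software error of 0.23, and its sign turned under 5 of 10 alternatives. Both genes lay between the quartiles of genes of similar signal, whose median was -0.04 around Nqo1 and -0.10 around Slc7a11.

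In glutathione synthesis, Gclc, the catalytic subunit of glutamate-cysteine ligase, had intensities of 2652 and 2944. Its log2 difference was 0.05 with a spot SD of 0.053, within 1 spot SD, and turned negative under 1 alternative, scaling by the 75th percentile of doubly detected probes (those detected on both arrays). Gclm, the partner subunit, had intensities of 655 and 559, and its log2 difference was -0.33 with a spot SD of 0.061. The IL-4 level of Gclm was 79.7% of the untreated level, a difference of 1.60 software errors, and 15.1% of the 17242 genes detected on both arrays were as low or lower. Of the subunits of this one enzyme, Gclm thus differed beyond both errors and Gclc within both. Gclm was below 0 under all 10 alternatives, from -0.38 to -0.04, the last under spike-in scaling.

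Gsr was read by 2 probes, and it is the only gene of the set with more than 1. The brighter probe had an intensity of 9033 in untreated and 6168 in IL-4-treated BMDMs, and the other had 3289 and 2079. Both probes were thus lower after IL-4, by about as much. The log2 difference was -0.65 with a spot SD of 0.047 for the brighter probe and -0.76 with a spot SD of 0.053 for the other, which leaves 63.7% and 59.0% of the untreated level. These differences were 3.19 and 3.73 times the software error, and Gsr was the only gene beyond 2 software errors. As that error is nearly the same share of intensity for all these probes, this restates that Gsr differed most. It was not an extreme gene of the arrays, since 784 of 17242 genes, 4.55%, were as low or lower by the brighter probe. Among 1435 genes of similar signal the middle of the distribution was narrower, with quartiles at -0.10 and 0.17. Gsr was below 0 under all 10 alternatives, from -0.71 under quantile normalization to -0.36 under spike-in scaling, and it was under 1.5-fold lower with no scaling, median scaling and spike-in scaling. Relative to the median of all genes it lay between -0.70 and -0.57 under the 10 alternatives, against -0.64 as reported.

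Gpx1, the glutathione peroxidase that uses reduced glutathione to remove hydrogen peroxide, had intensities of 50239 and 47908. Its log2 difference was -0.17 with a spot SD of 0.039 taken from only 3 probes of so high a signal. The peroxidase was therefore displaced as little as Nfe2l2 and Keap1, within 1 software error, while the reductase of the same cycle was not, and its sign too turned under median and spike-in scaling.

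In the thioredoxin branch, Txnrd1, which keeps thioredoxin reduced with NADPH, had intensities of 10990 and 12076. Its log2 difference was 0.04 with a spot SD of 0.046. It was within 1 spot SD, and turned negative under 3 of 10 alternatives. Srxn1, which repairs overoxidised peroxiredoxins, had intensities of 11907 and 11067 and a log2 difference of -0.21 with a spot SD of 0.046. That is 1.01 software errors, so Srxn1 lay at the edge of this error, and its sign turned under median and spike-in scaling. Thioredoxin reductase and glutathione reductase, which do the same task for the 2 thiol systems, thus differed unequally on these arrays.

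**Figure D2:**
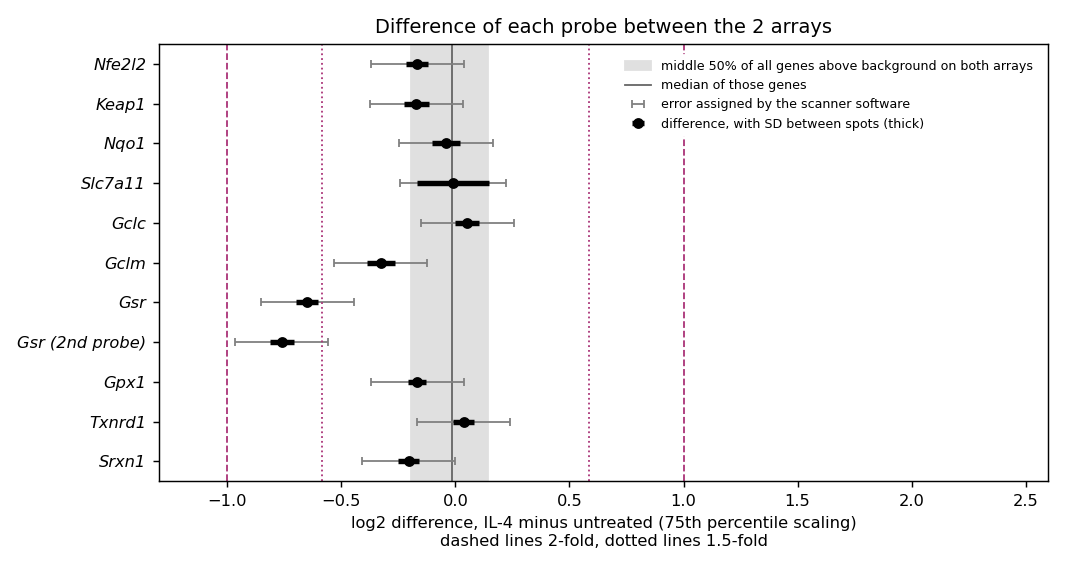
Log2 difference of each of the 11 probes, IL-4 minus untreated, with the SD between spots (thick bar) and the error assigned by the software (thin bar); the grey band spans the quartiles of all genes detected on both arrays, -0.19 to 0.14. Only the Gsr probes lie past the dotted 1.5-fold line, at -0.65 and -0.76, and with another scaling (none, median or spike-in) the brighter one lies inside it.

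Across the set, 8 genes were below 0 and 2 (Gclc and Txnrd1) were above, but this split followed the scaling: 2 genes were below 0 with median scaling and with spike-in scaling, and 10 with the 75th percentile of doubly detected probes. In the reported values 7 of 10 genes were below the median of all genes, and 7 or 8 were under the alternatives. Scalings that shift all genes equally cannot change this second count, so its steadiness under them carries no weight. The median difference of the 10 genes was -0.17, against -0.01 for the 17242 genes detected on both arrays. Of the 10 genes, 7 lay between the quartiles of all genes, 3 (Gsr, Gclm and Srxn1) lay below the lower quartile, and 0 lay above the upper one. Compared with genes of similar signal, Nfe2l2, Keap1 and Gpx1 also lay below the lower quartile, which was -0.09, -0.12 and -0.03. Without Gsr the remaining 9 genes spanned only -0.33 to 0.05. By the spot SD, 6 of 10 genes differed by more than 2 SDs, and by the larger software error 1 of 10 did and 7 differed by less than 1 error. No share of all genes was counted for either error, so these counts have no background beside them. At a spot SD of 0.053, that of Keap1, both quartiles of all genes, -0.19 and 0.14, also lie beyond 2 SDs. The 4 genes with the TGACNNNGC core had differences of -0.17 (Nfe2l2), -0.33 (Gclm), 0.04 (Txnrd1) and -0.21 (Srxn1), and the 4 without it in their windows had -0.17 (Keap1), -0.04 (Nqo1), -0.01 (Slc7a11) and -0.17 (Gpx1). The ranges of these 4 and 4 genes overlap.

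**Figure D3:**
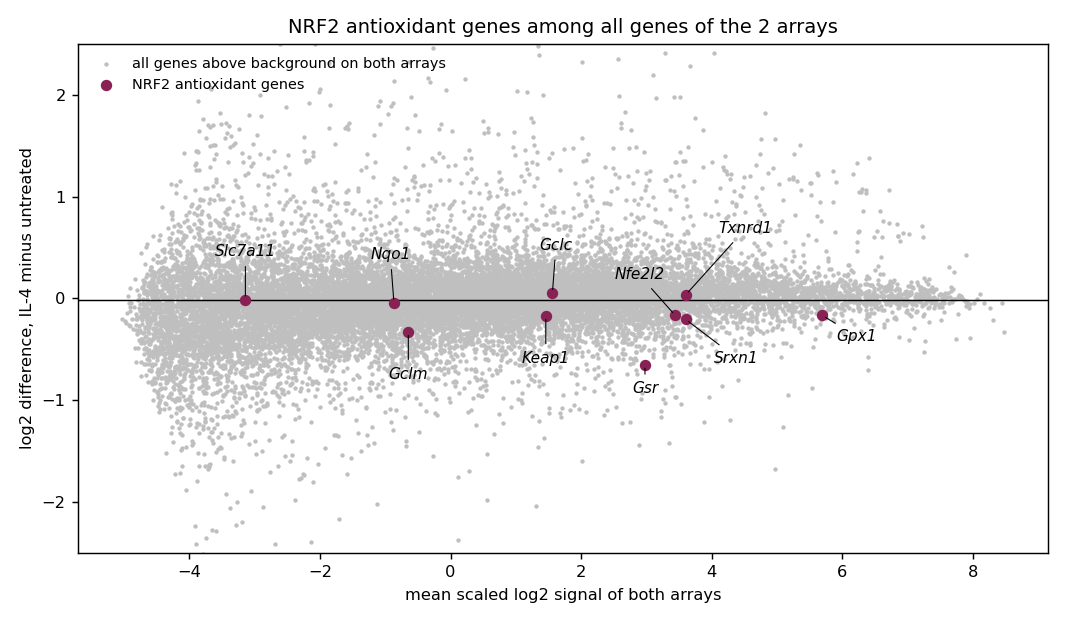
Log2 difference against the mean scaled log2 signal of both arrays for the genes detected on both arrays (grey; 40 genes lie beyond the axis limit of 2.5), with the 10 NRF2 antioxidant genes in purple and the median of all genes as a line. The set holds both dim and bright probes. Of its genes 7 lie between the quartiles of all genes, while Gsr at -0.65 lies at the lower edge of the cloud.

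**Figure D4:**
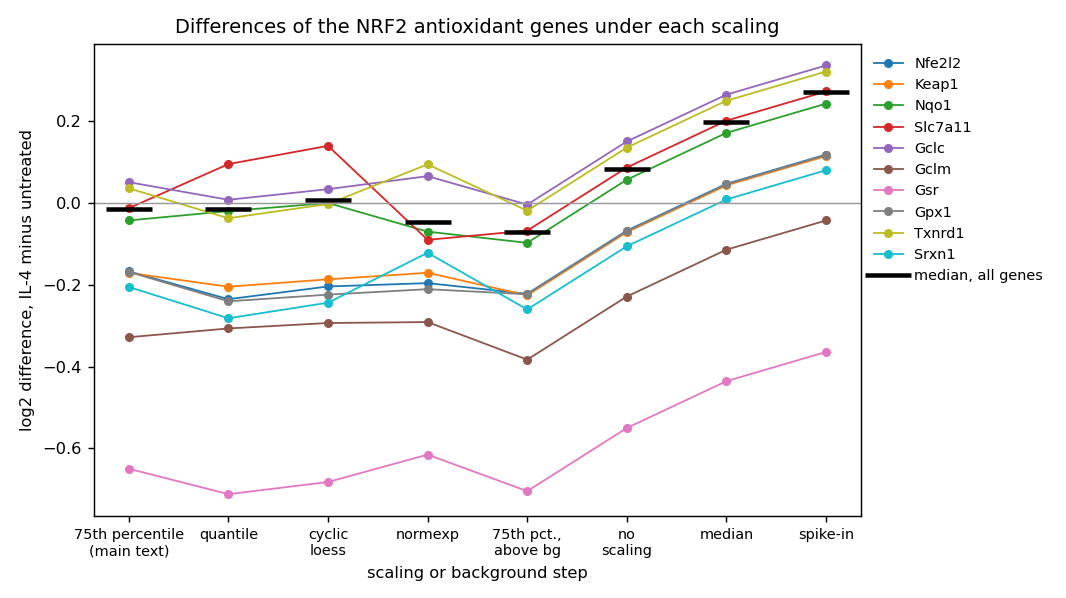
Log2 difference of each of the 10 genes under the reported scaling and 7 other scalings or background steps (x axis), with black bars for the median of all genes, which moved from -0.01 to 0.20 with median scaling and to 0.27 with spike-in scaling. Gsr stays lowest throughout, Gclm and Gsr stay below 0, and most genes cross 0 together with the median of all genes.

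The wider pathway was read from 8 lists that hold 118 genes in all, of which 115 were on the array and 109 were detected on either array. At 2-fold 4 of 109 genes (3.67%) were higher and 3 (2.75%) lower, and at 1.5-fold 10 (9.17%) were higher and 14 (12.8%) lower, against 2.86%, 4.47%, 6.11% and 11.0% of all genes. The median over the 105 genes detected on both was -0.04.

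Among 13 partners and regulators of NRF2, 0 of the 12 detected differed 2-fold. At 1.5-fold 2 were higher and 1 was lower, against 6.11% and 11.0% of all genes. Under the 12 alternatives these counts were 1 or 2 and 0 or 1. The highest was Nfe2, a relative of NRF2 that also pairs with small MAF proteins, at 0.71 (spot SD 0.087), from an intensity of 198 to 347. Bach1, the repressor that competes with NRF2, followed with intensities of 2261 and 3882 and a log2 difference of 0.68 with a spot SD of 0.052. Bach2, the related repressor, was the lowest at -0.63, but its probe was dim, with intensities of 97 and 67 and a spot SD of 0.19. These 3 differences kept their sign under all 10 alternatives.

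Other NRF2 target genes lay on the low side, with 25 of the 29 detected on both arrays below the median of all genes. This count was 19 with normexp and 24 or 25 under the other alternatives, and scalings that shift all genes equally cannot change it. Their median difference was -0.20, which was -0.18 relative to all genes. At 2-fold 0 of 31 were higher and 2 were lower, against 2.86% and 4.47% of all genes. At 1.5-fold 5 of 31 were lower, against 11.0%. Under the 12 alternatives the lower counts ranged from 0 (normexp) to 2 at 2-fold and from 2 (spike-in scaling) to 6 at 1.5-fold. The lowest were the glutathione transferases Gsta3, with intensities of 215 and 88 and a log2 difference of -1.39 (second probe -0.95), and Gsta4, which was not detected after IL-4 and was at least 2.18-fold lower, a bound of 1.53-fold under normexp. The other 3 at 1.5-fold were Cat (-0.85), Ugt1a6a, at least 1.60-fold lower (1.20-fold with quantile normalization), and Hmox1. Hmox1, the haem oxygenase that NRF2 and BACH1 control in opposite directions, had intensities of 11790 and 8023 and a log2 difference of -0.66 (second probe -0.83). Osgin1 was the highest, at 0.32. Hmox1 and Gsr were thus lower by about the same amount on these arrays, while Nqo1 and Txnrd1 differed by less than their spot SDs.

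Around glutathione, the list of 27 other genes had a median of 0.03 over the 24 detected on both arrays. At 2-fold 2 of the 25 detected were higher (1 with normexp) and 0 lower (1 without the filter on dim probes). The shares of all genes were 2.86% and 4.47%. Glrx, the glutaredoxin that uses glutathione to reduce protein disulfides, had intensities of 2733 and 6631 and a log2 difference of 1.18 (spot SD 0.052). Ggt5, a gamma-glutamyl transferase, was higher by 1.63 (spot SD 0.19), from a dim 48 to 160, and by 0.73 to 1.91 under the alternatives. Mgst2 (-0.88) and Oplah (-0.79) were at least 1.5-fold lower. Glrx was thus higher where Gsr was lower. The other glutaredoxins of the list differed less, with Glrx2 at -0.21 (another probe 0.03), Glrx3 at 0.13 and Glrx5 at 0.14.

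In the thioredoxin and peroxiredoxin list, 0 of 17 genes differed 2-fold. At 1.5-fold 3 were lower (1 with spike-in scaling), against 11.0% of all genes. These were the methionine sulfoxide reductases Msrb1, with intensities of 57455 and 33509 and a log2 difference of -0.88, and Msrb2 (-0.73), and the sestrin Sesn1 (-0.82). The highest was the mitochondrial thioredoxin Txn2 at 0.20, and the list median was -0.05. Superoxide dismutases and catalase split: Sod3, the secreted enzyme, had intensities of 7388 and 17015 and was 2.15-fold higher, and the mitochondrial Sod2 was 1.53-fold higher. Cat, which is also in the list of other NRF2 targets, had intensities of 1154 and 688 and a log2 difference of -0.85, and the cytosolic Sod1 differed by -0.27, a sign that turned with spike-in scaling. The list of enzymes taken as forming NADPH, which Gsr and Txnrd1 use, held no gene past 1.5-fold among 7. The shares of all genes at 1.5-fold were 6.11% higher and 11.0% lower. The NADPH list ran from -0.40 for Pgd to 0.15 for Mthfd1, with a median of -0.17, that of Me2. G6pdx, Pgd and Me1 are also in the list of other NRF2 targets, so these lists are not separate.

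**Figure D5:**
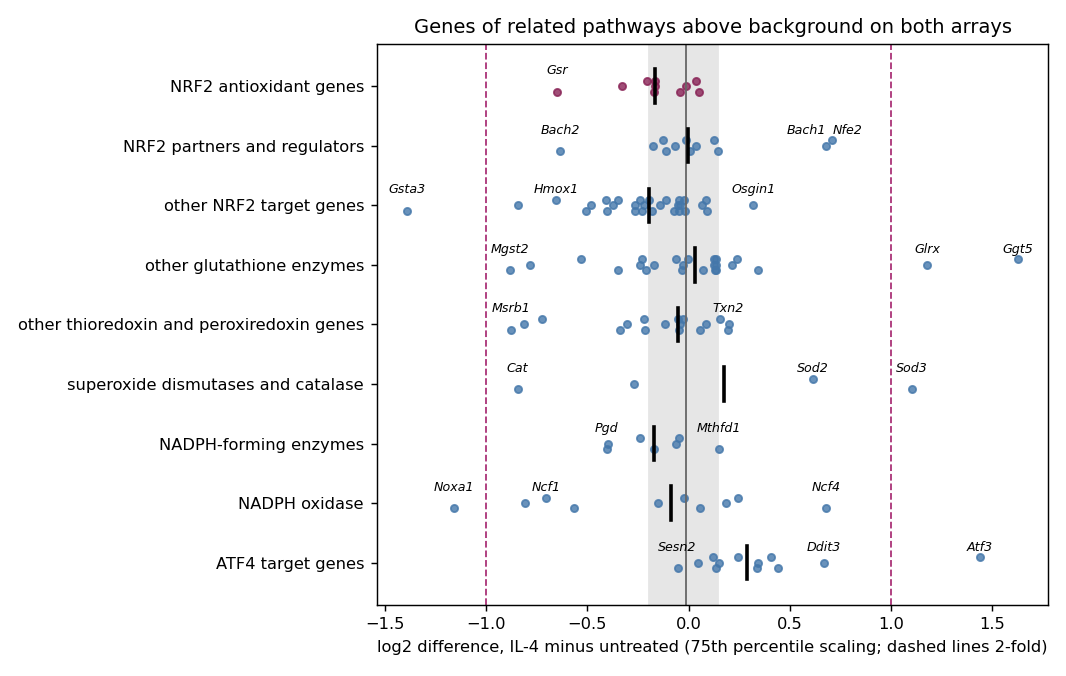
Log2 difference of each gene detected on both arrays, IL-4 minus untreated, for the NRF2 antioxidant genes (purple) and 8 related lists (blue), with a black bar at each list's median, a grey band over the quartiles of all genes and dashed lines at 2-fold. The 10 genes sit between -0.65 and 0.05, whereas genes past 1 in size, such as Glrx, Ggt5, Sod3, Gsta3 and Atf3, belong to the other lists; signs near 0 turn with the scaling.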

How the data were processed

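Scanner output of Agilent Feature Extraction 10.10.1.1 was deposited by the authors for 2 arrays, with an intensity for each spot that is background-subtracted, detrended and unscaled. The spot flags were used as deposited. A second table that the authors deposited holds processed log2 values, whose centring and scaling are not given in the sources used here. Its columns had medians of 0.161 and 0.0160, and its differences for the 11 member probes lay within 0.000565 of those from the scanner.

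Arrays were assigned to conditions from the sample labels. Control and outlier spots were left out, log2 intensities of a probe's spots were averaged, and each array's 75th percentile was subtracted. A gene was read from its brightest probe. Detected means that most spots of a probe carried the flag for a signal well above background. A probe detected on 1 array only gave a bound. Its level on the other array was set to the lowest detected signal there, or to its own where that was higher. Of 43020 gene spots, 59.8% (untreated) and 57.4% (IL-4) were well above background. Names came through RefSeq accessions from a GRCm38.p6 table (27234 of 39429 probes, 20656 symbols). The design was annotated on mm9, so no gene coordinates are given from it, and promoter sequences and positions are RefSeq's on GRCm38.p6.

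The members and lists were chosen with earlier results of these data known. All 10 members are named with every probe. From each of the 8 pathway lists every gene at least 2-fold different is named, and the highest and the lowest gene. Genes named at 1.5-fold, and Bach1, Ddit3, Cybb, Ncf1 and Ncf4, were chosen after their values were seen. No gene was named for a likeness of pattern, which 2 arrays cannot measure. The spot SD is a median over 10-spot probes within 1 log2 unit of signal (3 to 75 probes) of the SD between spots of their log2 difference, and genes of similar signal lie within 0.5. One list of marker genes is not reported here. No test was run with 1 array per condition. On simulated data with 39424 probes and a noise of 0.1, the counting step recovered 200 of 200 probes set to a 4-fold change and called 0 of the unchanged ones. At so low a noise this outcome was fixed in advance. It checks the code only and says nothing about the differences reported here. Alternatives were other scalings, normexp with an offset of 50 (on median pixel intensity, as no mean was in the files used), other probe rules, outlier spots kept, the processed table and other filters. Scaling on 7 spike-in probes was added after seeing the data. Tools were R 4.3.3 with limma 3.58.1 and Python 3.11.15 with pandas 2.3.3 and numpy 2.4.6.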

Additional observations from a re-analysis of the deposited data

How the results depend on the processing

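No paired analysis was possible because untreated and IL-4-treated BMDMs had 1 array each. The median difference of the members, -0.17 as reported, was 0.047 with median scaling, -0.22 with quantile normalization, -0.068 with no scaling, -0.22 with the 75th percentile of doubly detected probes, and 0.12 with spike-in scaling (chosen after seeing the data). The median of all genes moved by 0.21 with median scaling and 0.29 with spike-in scaling. Relative to it the members' median was -0.15, -0.21 with quantile normalization and -0.10 with normexp. Gsr was the 1 member at least 1.5-fold lower, and the count was 0 with median scaling, no scaling and spike-in scaling. Relative list medians moved with quantile normalization for thioredoxin genes (-0.04 to -0.14), superoxide dismutases and catalase (0.19 to 0.10) and ATF4 targets (0.30 to 0.22), with cyclic loess for the same lists (-0.10, 0.12 and 0.24) and NADPH oxidase (-0.072 to -0.017), and with normexp for other NRF2 targets (-0.18 to -0.12). Genes at 2-fold, 883 lower and 564 higher, were 564 lower and 827 higher with median scaling and 532 and 801 with quantile normalization, so that the balance turned, 268 lower and 297 higher with normexp, 495 and 954 with spike-in scaling, 4075 and 1389 without the filter on dim probes, and 270 and 363 over genes detected on both arrays. At 1.5-fold, 2164 lower and 1206 higher became 1375 and 2091 with median scaling, 1389 and 1689 with quantile normalization, 1713 and 696 with normexp, 1167 and 2686 with spike-in scaling, 5986 and 2444 without the filter, and 966 lower over genes detected on both. Of 384 counts for single lists, 49 moved by over 1.5 times. The motif count of 4 became 2 with TGAGNNNGC. The cause was not tested for any of these.

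All values rest on 1 array per condition. Spot and software errors leave out cultures, labelling and hybridisation. For the dimmest member, Slc7a11, the software error of the difference was 0.23, so changes smaller than that are within this error.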

Other observations

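Some genes of other redox groups differed by more than any of the NRF2 antioxidant genes. In the NADPH oxidase list, 11 of the 13 genes on the array were detected on either array, and the median difference was -0.09. At 2-fold 0 genes were higher and 1 was lower, against 2.86% and 4.47% of all genes. These counts were 0 or 1 and 0 to 2 under the 12 alternatives, with 1 higher and 0 lower under median scaling, quantile normalization, cyclic loess and spike-in scaling. The membrane subunit Cybb had intensities of 2470 and 1788 and a log2 difference of -0.57, and the cytosolic subunit Ncf1 had intensities of 4981 and 3280 and a difference of -0.70. Ncf4, another cytosolic subunit, went the other way, from 21594 to 37070, a difference of 0.68. The highest was Nox1, at least 1.98-fold higher, since its probe was not detected in untreated BMDMs (intensities of 14 and 62), a bound that falls to no difference by the median over its probes. The lowest of the list was Noxa1, a dim probe with intensities of 114 and 55 and a difference of -1.16 with a spot SD of 0.19, which was -0.72 at its smallest under the alternatives. Subunits of one complex thus differed in opposite directions, and Cybb, Ncf1 and Ncf4 kept their signs under all 10 alternatives.

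ATF4 targets, genes of amino acid supply and the stress response, lay above the median of all genes in 11 of 12 genes. The count was 10 to 12 under the alternatives, and scalings that shift all genes equally cannot change it. Their median difference was 0.29, which was 0.30 relative to all genes. Chac1 and Slc3a2 are also in the list around glutathione and Sesn2 in the thioredoxin list, so these lists are not separate. Of the 12, 1 was at least 2-fold higher and 0 were lower, against 2.86% and 4.47% of all genes. That gene was Atf3, a stress-induced transcription factor, with intensities of 6347 and 18466 and a difference of 1.44 (spot SD 0.047). Ddit3 was higher by 0.67, from 909 to 1550, and Sesn2 was the lowest at -0.05, a sign that turned under 3 alternatives. There was 1 array per condition here too, so these are differences between the arrays and were not tested.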
